A study of Mus musculus with 8 samples.

Results

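The hedgehog and parathyroid hormone-related protein (PTHrP) loop was described through 9 genes chosen by name out of the 31053 in the mouse matrix. They were the ligands Ihh and Pthlh, the receptor Ptch1, the signal transducer Smo, the transcription factors Gli1, Gli2 and Gli3, and the inhibitors Hhip and Sufu. All 9 had unique molecular identifiers (UMIs) in the matrix, and none was left out. The PTHrP receptor gene Pth1r is not a member but is given beside them, and 69 further genes of the same pathways served as a comparison list.

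In the growth plate, prehypertrophic and early hypertrophic chondrocytes secrete Indian hedgehog, the product of Ihh. On the receiving cell the ligand binds Patched1, which releases Smoothened, and the signal ends on the Gli transcription factors, whose targets include Ptch1, Gli1 and Hhip themselves. Hedgehog signalling also sustains PTHrP, the product of Pthlh, in chondrocytes nearer the joint. PTHrP acts on Pth1r in the columns below and holds back hypertrophy, which closes the loop.

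Single-cell transcriptomes came from the tibiae of mice at postnatal day 56, 8 weeks of age. Every animal carried an MMP14 F/+ allele together with COL10A1cre, the R26-tdT reporter and the Col1a1-2.3-GFP transgene, so no group without these alleles was available for comparison. The Cre is driven from Col10a1, the collagen gene of hypertrophic chondrocytes (HCs), and marks these cells and whatever descends from them. Cells of 3 animals were pooled before the library was made, so the data hold 1 pooled sample, no difference below has a replicate check, and no p-value is given. The digests that released most blood cells were discarded, and the final digest was enriched for tdTomato-positive cells, so the number of cells of each kind reflects the preparation as well as the tissue.

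Cells were sorted into 8 gates by the raw UMIs of a few marker genes among the 4472 barcodes with at least 1600 genes. The growth-plate gate asked for at least 10 UMIs of Col2a1, a cartilage collagen, with at most 1 of Prg4, the lubricin gene of the joint surface, and held 243 cells. The Col10a1 gate asked for at least 5 Col10a1 UMIs (75 cells), and the articular-type gate for at least 2 UMIs of Prg4 and Cilp together with at least 1 of Acan (197 cells). Outside cartilage, the Bglap gate asked for at least 20 UMIs of the osteocalcin gene (54 cells), and the Cxcl12 gate for at least 20 of Cxcl12 with at least 2 of Lepr and Adipoq together, which mark marrow stroma (23 cells). The Dcn and Col3a1 gate asked for at least 3 UMIs of each of these matrix genes (164 cells), the Cdh5 gate for at least 1 of the endothelial cadherin (89 cells), and the Ptprc gate for at least 1 of the blood-cell antigen CD45 (3286 cells). A cell could enter more than 1 gate, and 697 kept barcodes entered none.

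Markers that no gate used were then counted as seen when at least 25% of a gate's cells held a UMI. Growth-plate markers were seen 7 of 7 in the growth-plate gate, articular markers 5 of 6 in the articular-type gate, osteoblast markers 8 of 8 in the Bglap gate, stromal markers 5 of 5 in the Cxcl12 gate, endothelial markers 7 of 7 in the Cdh5 gate and blood markers 7 of 7 in the Ptprc gate. The articular count did not set that gate apart, since 5 of 6 were also seen in the growth-plate, Col10a1 and Dcn and Col3a1 gates. Summed over the 6 genes, though, the level was 25592 CPM (UMIs per 1000000 UMIs of the gate) in the articular-type gate, 14830 in the Col10a1 gate, 13405 in the Dcn and Col3a1 gate and 3456 in the growth-plate gate. Fibroblast and tendon markers were seen only 2 of 6 in the Dcn and Col3a1 gate, which is therefore called by its rule. The Col10a1 gate held 2 kinds of cell. Its 39 cells inside the growth-plate gate had 6 of 7 hypertrophic markers, whereas the 35 inside the articular-type gate had 1 of 7. The whole growth-plate gate also had 6 of 7, and the Bglap and Cxcl12 gates had 5 of 7, so the count alone does not mark the 39 cells. The summed level of the 7, of which Pth1r is 1, was 17017 CPM in the 39 cells, 6139 in the 35, 5715 in the growth-plate gate, 7642 in the Bglap gate and 6607 in the Cxcl12 gate. It was 7346 in the articular-type gate, 8095 in the Dcn and Col3a1 gate and 10157 in the cells shared by these gates. Of the Bglap gate, 25 of 54 cells (46.3%) also met the growth-plate rule, and these had all 7 growth-plate markers at a summed 18012 CPM, against 228 in the 28 Bglap-gate cells outside cartilage. The articular-type gate and the Dcn and Col3a1 gate shared 81 cells. In the Cdh5 gate 52.8% of cells held a Ptprc UMI, and blood markers summed to 26626 CPM there, against 1923 to 8729 in the 6 gates of cartilage and stroma and 89342 in the Ptprc gate. What shared or doublet barcodes contribute to each value was not tested, and several levels are given a second time over 8 classes that share no cell. In these classes a Col10a1-gate cell of cartilage counted only as Col10a1, a cell of both other cartilage gates only as articular-type, and a cell in gates of 2 tissues was left out. The growth-plate class kept 142 cells, the Col10a1 class 55, the articular-type class 64, the Dcn and Col3a1 class 55 and the Ptprc class 3150.

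The promoters of Ihh, Pthlh, Ptch1 and Hhip are shown as those of the ligands, the receptor and the inhibitor of the loop. Each sequence is the 250 bases before 1 RefSeq transcription start of the gene on GRCm38.p6, written on the gene's own strand, which is the minus strand in all 4. They lie at chr1:74951673-74951922 for Ihh, chr6:147264014-147264263 for Pthlh, chr13:63565736-63565985 for Ptch1 and chr8:80058009-80058258 for Hhip. The Ptch1 window lies inside the gene as annotated in GENCODE M21 (chr13:63508328-63573598). The Pthlh window lies partly inside its gene (chr6:147252101-147264183). Other starts of these genes were not searched. Capitals mark the core of the Gli binding motif, GGGTGG, or its reverse complement CCACCC.
Ihh: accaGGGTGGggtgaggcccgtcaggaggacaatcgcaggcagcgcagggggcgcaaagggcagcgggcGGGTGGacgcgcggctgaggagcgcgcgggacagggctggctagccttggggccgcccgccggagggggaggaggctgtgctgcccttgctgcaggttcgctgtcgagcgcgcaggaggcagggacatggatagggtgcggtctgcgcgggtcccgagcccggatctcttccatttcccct
Pthlh: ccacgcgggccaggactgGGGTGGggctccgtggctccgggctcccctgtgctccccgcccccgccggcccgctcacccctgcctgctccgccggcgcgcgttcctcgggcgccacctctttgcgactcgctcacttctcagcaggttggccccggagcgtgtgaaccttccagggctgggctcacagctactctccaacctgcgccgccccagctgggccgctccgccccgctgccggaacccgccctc
Ptch1: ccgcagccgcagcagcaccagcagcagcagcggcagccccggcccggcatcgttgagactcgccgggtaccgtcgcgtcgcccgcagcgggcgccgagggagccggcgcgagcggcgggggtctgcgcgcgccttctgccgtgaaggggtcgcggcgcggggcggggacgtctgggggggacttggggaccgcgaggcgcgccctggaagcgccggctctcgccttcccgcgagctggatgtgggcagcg
Hhip: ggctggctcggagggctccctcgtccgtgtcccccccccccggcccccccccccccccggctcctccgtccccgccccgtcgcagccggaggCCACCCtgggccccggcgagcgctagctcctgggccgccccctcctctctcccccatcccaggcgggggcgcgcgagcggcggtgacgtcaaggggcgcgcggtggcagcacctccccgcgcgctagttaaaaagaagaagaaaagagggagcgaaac
The core stood 246 and 181 bases before the start of Ihh, 232 bases before that of Pthlh and, as CCACCC, 158 bases before that of Hhip. The Ptch1 window, which lies inside the gene, held none. On both strands the same 6 letters occurred in 28.1% of 32851 mouse promoters of this length, so a match is common. The fuller 9-letter form TGGGTGGTC was in 0.225% of them and in none of the 8 members with an entry. Gli1 had no entry.

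Ihh was highest in the Col10a1 gate. Its level there was 434 CPM (95% Poisson interval 405 to 466), from 792 UMIs in 37 of 75 cells (49.3%). The growth-plate gate followed at 148 (138 to 159), with a UMI in 48 of 243 cells (19.8%), and the intervals of the top 3 gates did not overlap. These intervals cover counting error within the pool only. Of the 859 Ihh UMIs in kept barcodes, 849 (98.8%) lay in the growth-plate or Col10a1 gate.

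The Ihh of the Col10a1 gate sat in its growth-plate cells. Among the 39 cells inside both gates, 36 (92.3%) held Ihh, from 0 to 71 UMIs a cell with a median of 17, and the level was 608 CPM (566 to 652). The 35 Col10a1-gate cells of articular type had 19.7 (9.45 to 36.3), all 10 UMIs from 1 cell. Growth-plate cells with fewer than 5 Col10a1 UMIs had 13.0 (9.87 to 16.9), with a UMI in 12 of 204. Depth differed between these cells, at a median of 32457 UMIs in the first group, 12856 in the second and 18024 in the third. If every cell were thinned to 3000 UMIs, the expected share with Ihh would be 65.7%, 1.66% and 1.71%, so the first group stayed highest at equal depth while the intervals of the others overlapped.

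In the Bglap gate Ihh stood at 88.2 CPM (73.7 to 105), the third highest level. Here 13 of the 15 Ihh-positive cells were also in a cartilage gate. The 28 Bglap-gate cells outside cartilage had 5.47 (1.13 to 16.0), from 3 UMIs. No Ihh UMI was seen in the Dcn and Col3a1 gate (0 of 164 cells, which allows a level of up to 1.32 and a share of up to 1.83%), the Cdh5 gate (up to 3.47 and 3.37%) or the Cxcl12 gate (up to 14.1 and 13.0%). The Ptprc gate, whose cells should lack the gene, held Ihh in 11 of 3286 cells (0.335%), of which 8 were in a cartilage gate as well. Ptprc-gate cells outside every other gate had 0.0773 CPM at a median depth of 9899 UMIs.

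Pthlh was sparse in every gate, with 48 positive barcodes among those kept. Of these 37 lay in a cartilage gate, 7 in the Dcn and Col3a1 gate outside cartilage and 4 in none. The level was 19.0 CPM (13.7 to 25.6) in the Dcn and Col3a1 gate, 16.5 (12.1 to 22.0) in the articular-type gate and 10.8 (8.24 to 13.8) in the growth-plate gate, and these 3 neighbours overlapped. Without shared cells the order changed, to 19.9 (15.0 to 26.0) in the growth-plate class, 13.5 (5.43 to 27.8) in the Dcn and Col3a1 class and 6.32 (2.05 to 14.7) in the articular-type class, where the first and last did not overlap. In the growth-plate gate 24 of 243 cells (9.88%, or 3.16% expected at 3000 UMIs) held a UMI, and no cell had more than 12. The Bglap gate (up to 2.04), the Cdh5 gate (up to 3.47) and the Cxcl12 gate (up to 14.1) had none. In the Ptprc gate 8 of 3286 cells (0.243%) were positive, and none of the 3150 outside the other gates.

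The 2 highest Pthlh levels rested on 1 cell shared by those gates. It held 29 Pthlh UMIs out of 55261, 63.0% of the articular-type gate's Pthlh and 67.4% of that of the Dcn and Col3a1 gate. Without it the levels were 6.22 and 6.34. This cell had 1195 Prg4, 987 Cilp, 122 Acan and 4160 Dcn UMIs, 18 of Col2a1 and 1 of Ptprc, and none of Ptch1, Gli1 or Hhip. Scrublet did not call it a doublet. Leaving out the top cell of the growth-plate gate moved its level less, to 8.68.

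The ligand genes were not seen in the same cell. Among all 4472 kept barcodes, 58 held Ihh, 48 held Pthlh and 0 held both. With so few positive barcodes, few shared ones would be counted even if the genes were unrelated. The 0 therefore does not show that they exclude each other. Pthlh was at 0 in the 39 Col10a1-gate cells of the growth plate, which allows up to 2.33 CPM, and at 7.89 (2.15 to 20.2) in the 35 of articular type. Within the growth-plate gate the 24 Pthlh-positive and 48 Ihh-positive cells were separate sets. All 24 had fewer than 5 Col10a1 UMIs, and only 12 of the 204 growth-plate cells below that limit held Ihh. The Ihh-positive cells were deeper, at a median of 32456 UMIs against 17592, and had Hhip at 9.34 CPM where Ihh-negative cells had 148.

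**Figure D1:**
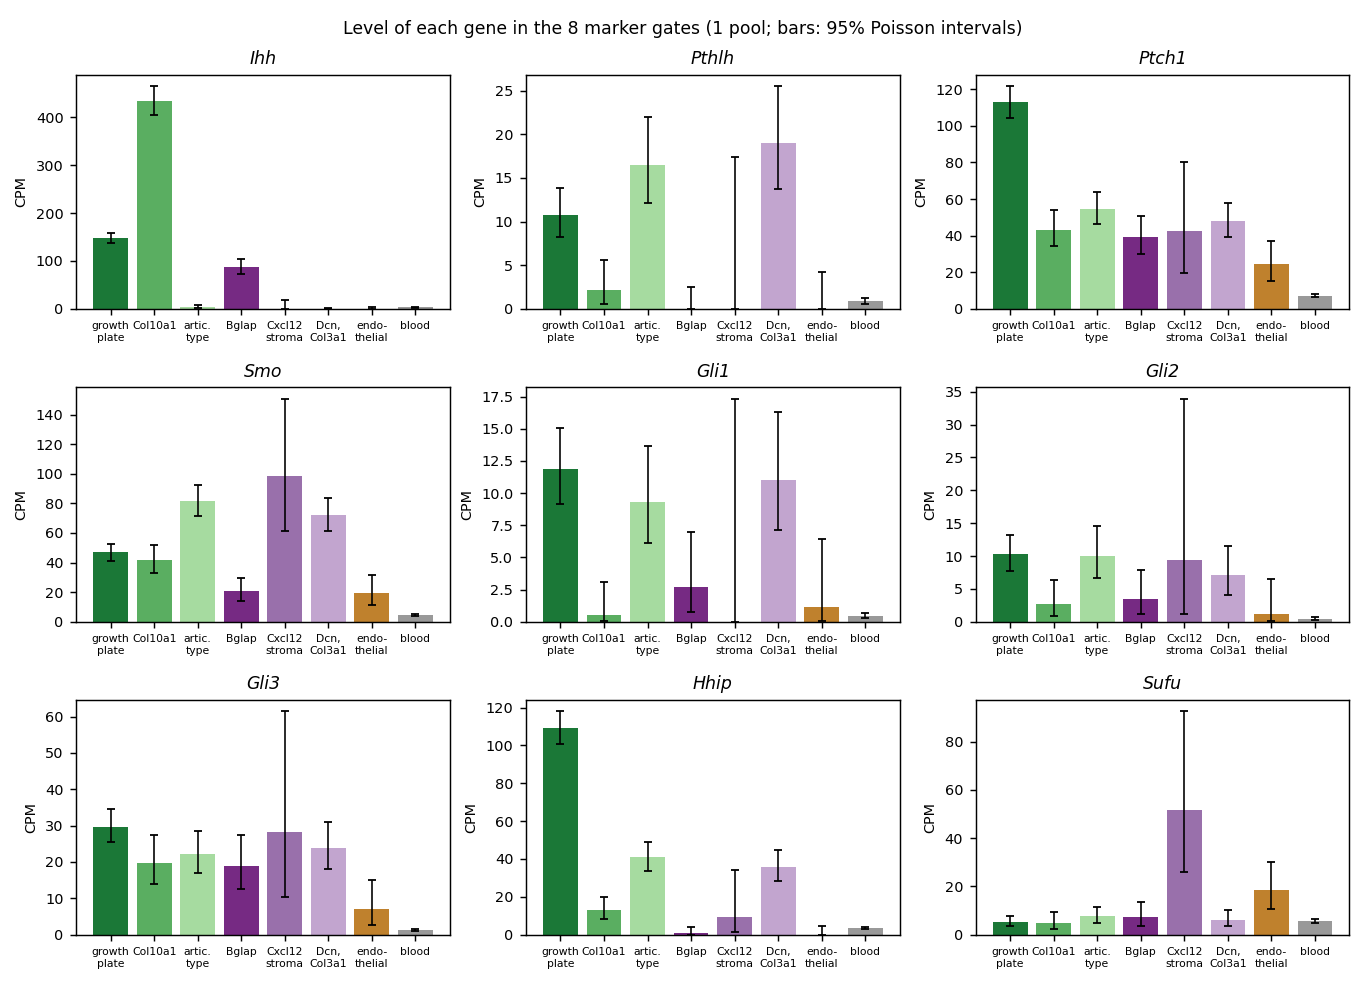
Each panel plots 1 gene's level in CPM over the cells of each of the 8 gates, on its own axis from 0, with 95% Poisson intervals as error bars; gates share cells. Ihh stands at 434 in the Col10a1 gate and 148 in the growth-plate gate, while Ptch1 (113) and Hhip (109) peak in the growth-plate gate.

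Ptch1, the hedgehog receptor gene, was highest in the growth-plate gate. Its level was 113 CPM (104 to 122), with a UMI in 170 of 243 cells (70.0%) and from 0 to 19 UMIs a cell around a median of 2. The articular-type gate had 54.5 (46.2 to 63.9), the Dcn and Col3a1 gate 48.1 (39.5 to 58.1) and the Col10a1 gate 43.3 (34.3 to 54.0). Below the top level, each of the next 6 gates overlapped its neighbour, down to 24.3 (15.0 to 37.2) in the Cdh5 gate. The Ptprc gate was apart at 7.12 (6.33 to 7.98), where 6.00% of cells held a UMI, or 1.70% at 3000 UMIs against 26.6% for the growth-plate gate.

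Removing shared cells lowered the Ptch1 level of the Dcn and Col3a1 gate and of the Bglap gate. The Dcn and Col3a1 gate fell to 25.1 (15.1 to 39.3) over its 70 cells outside cartilage gates. The Bglap gate had 39.4 (29.9 to 50.9) in full and 18.2 (8.74 to 33.5) without cartilage-gate cells. The Cxcl12 gate shares no cell with cartilage gates and had 42.3 (19.4 to 80.3), from 9 UMIs. The Cdh5 gate, at 24.3 in full, had 30.9 (14.8 to 56.8) in its cells of no other gate. Inside the Col10a1 gate Ptch1 stood at 45.1 (34.2 to 58.3) in growth-plate cells and 39.4 (24.1 to 60.9) in articular-type cells, and these intervals overlapped.

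Smo, which relays the signal once Patched1 is occupied, had overlapping levels in growth-plate, articular-type and Dcn and Col3a1 cells once shared cells were left out. Over whole gates it was highest in the Cxcl12 gate at 98.8 CPM (61.1 to 151), where only 21 UMIs were counted. The articular-type gate at 81.4 (71.2 to 92.8) and the Dcn and Col3a1 gate at 72.0 (61.3 to 83.9) overlapped it and each other, and all 3 were above the growth-plate gate at 46.8 (41.3 to 52.8). That order rested on shared cells: the classes without them had 62.0 (53.0 to 72.1) for growth plate, 63.2 (46.9 to 83.3) for articular type and 61.7 (42.2 to 87.2) for Dcn and Col3a1, and the Cxcl12 class had 110 (61.3 to 181), all overlapping. The 70 Dcn and Col3a1 cells outside cartilage gates had 51.6 (36.7 to 70.5). The Bglap gate had 21 (14.3 to 29.9), the Cdh5 gate 19.7 (11.5 to 31.5) and the Ptprc gate 4.26 (3.65 to 4.93). Inside the Col10a1 gate, growth-plate cells had 26.4 (18.3 to 36.9) and articular-type cells 82.8 (59.7 to 112), so here the parts did differ beyond counting error.

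Gli1, an activator that is itself a hedgehog target, was low in every gate. The growth-plate gate had 11.8 CPM (9.17 to 15.0) from 67 UMIs in 47 cells, the Dcn and Col3a1 gate 11.0 (7.14 to 16.3) and the articular-type gate 9.33 (6.09 to 13.7). The 75 Col10a1-gate cells held a single Gli1 UMI, 0.549 (0.0139 to 3.06), and the Ptprc gate had 0.433 (0.257 to 0.684). Without shared cells the growth-plate class had 18.1 (13.4 to 23.9), the articular-type class 5.05 (1.38 to 12.9) and the Ptprc class 0.0515 (0.00624 to 0.186), so growth plate and articular type did not overlap there. Over whole gates every neighbour in the Gli1 order overlapped, although the growth-plate and Col10a1 gates did not. Gli1 overlaps the genes Arhgap9 and Gm47200 on the other strand, and no source used here says whether reads were counted by strand.

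Gli2, the main activator at the start of the response, had values close to those of Gli1. It stood at 10.2 CPM (7.78 to 13.2) in the growth-plate gate, 10.0 (6.68 to 14.5) in the articular-type gate and 7.06 (4.04 to 11.5) in the Dcn and Col3a1 gate. The 70 Dcn and Col3a1 cells outside cartilage gates had 2.65 (0.320 to 9.56), from 2 UMIs. The growth-plate cells of the Col10a1 gate had no Gli2 UMI, which allows up to 2.33, and the articular-type cells 9.86 (3.20 to 23.0) from 5 UMIs.

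Gli3, best known as the repressor among the Gli factors, was spread more evenly. The growth-plate gate had 29.7 CPM (25.4 to 34.5), and the next 5 gates lay between 19.0 and 28.2 with overlapping intervals. In contrast to Gli1 and Gli2 it was present in the growth-plate cells of the Col10a1 gate, at 21.8 (14.5 to 31.5) and in 21 of 39 cells. It was low in the Cdh5 gate at 6.95 (2.55 to 15.1) and in the Ptprc gate at 1.18 (0.872 to 1.56), or 0.155 (0.0567 to 0.336) in Ptprc-gate cells outside every other gate.

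Hhip encodes a membrane protein that binds hedgehog ligands and blunts the signal. It was highest in the growth-plate gate at 109 CPM (101 to 118), with a UMI in 142 of 243 cells (58.4%) and up to 26 in a cell. The articular-type gate had 40.9 (33.7 to 49.1) and the Dcn and Col3a1 gate 35.8 (28.4 to 44.5), the latter from 22 cells. The growth-plate cells of the Col10a1 gate, in which Ihh was highest, held only 3 Hhip UMIs, 2.33 (0.481 to 6.81), whereas the other 204 growth-plate cells had 140 (129 to 152). The 54 Bglap-gate cells held 1 Hhip UMI, 0.679 (0.0172 to 3.78), although 25 of them were in the growth-plate gate. No UMI was seen in the Cdh5 gate, which allows up to 3.47, and the Ptprc gate had 3.30 (2.77 to 3.90), or 0.283 (0.141 to 0.507) outside every other gate. Without shared cells Hhip was at 182 (167 to 199) in the growth-plate class, 63.2 (46.9 to 83.3) in the articular-type class and 48.2 (31.2 to 71.2) in the Dcn and Col3a1 class.

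Sufu, the cytoplasmic inhibitor that holds Gli proteins back, had no peak in cartilage. Its highest value was 51.7 CPM (25.8 to 92.6) in the Cxcl12 gate, from 11 UMIs in 8 of 23 cells, followed by 18.5 (10.6 to 30.1) in the Cdh5 gate. The other 6 gates lay between 4.94 and 7.53, with the Ptprc gate at 5.58 (4.89 to 6.35) and the growth-plate gate at 5.30 (3.58 to 7.56). All neighbours in the order overlapped. Endothelial markers summed to 941 CPM in the Cxcl12 gate, and 4 of its 23 cells were in the Cdh5 gate, and the part of these cells in its Sufu level was not tested.

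Pth1r, the receptor gene for PTHrP, was highest in the same growth-plate cells as Ihh. It stood at 2958 CPM in the growth-plate cells of the Col10a1 gate and was seen in 39 of 39 of them, against 175 (141 to 216) in the articular-type cells, with a UMI in 6 of 35. Growth-plate cells with fewer than 5 Col10a1 UMIs had 508 (487 to 530). Pth1r was also present in Bglap-gate cells outside cartilage, at 423 (370 to 481) and in 27 of 28 cells. The Ptprc gate had 37.1 (35.2 to 39.0). Pth1r overlaps the gene Myl3 on the other strand.

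**Figure D2:**
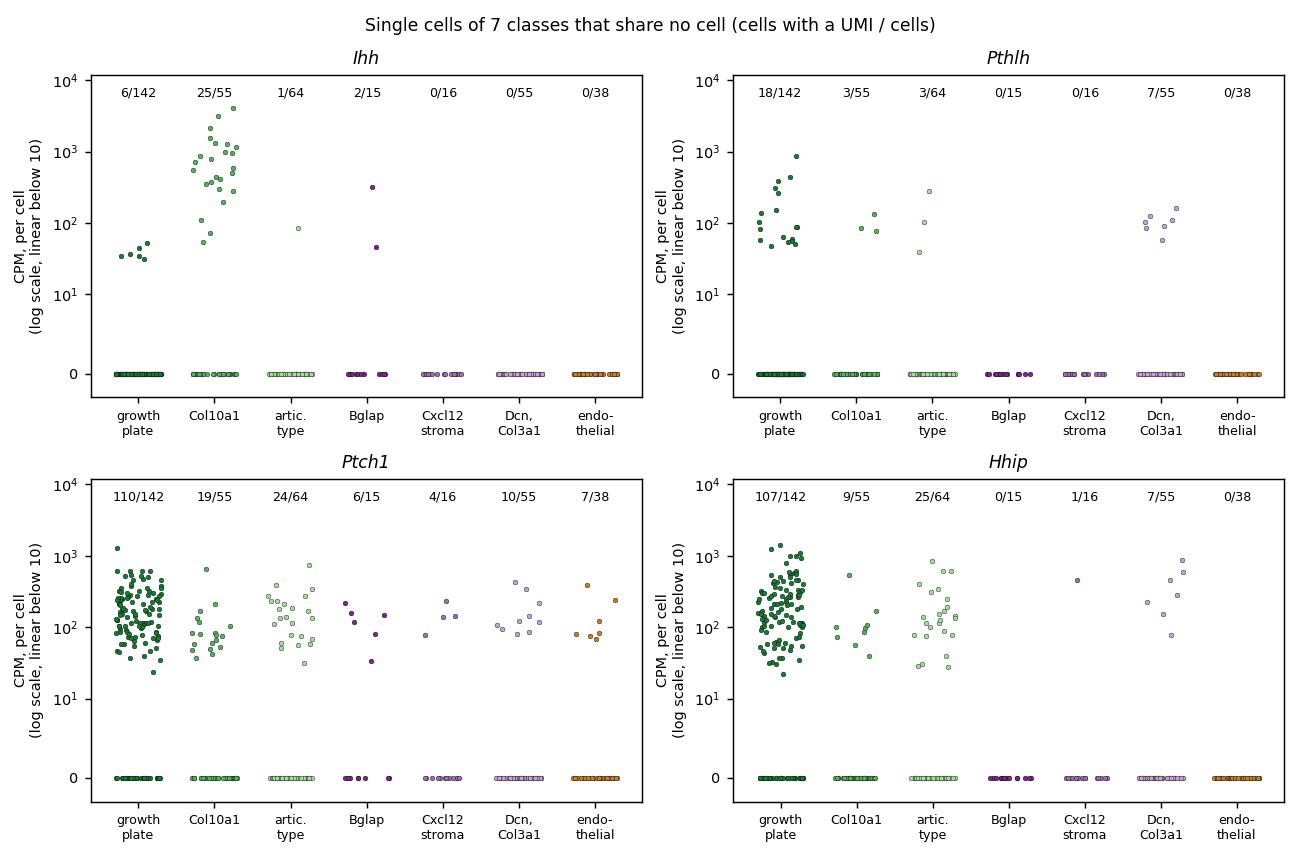
Each point is 1 cell and its height is the gene's CPM in that cell, on a log scale that is linear below 10; the 7 classes share no cell and the numbers above them are cells with a UMI over cells. Ihh is in 25 of 55 Col10a1 cells against 6 of 142 growth-plate cells, and Hhip is in 107 of those 142 against 9 of 55.

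Cells of the Col10a1 gate, of which 39 were in the growth-plate gate and 35 of articular type, were compared next with growth-plate cells low in Col10a1. Ihh and Pth1r were higher in the Col10a1 gate, while Hhip, Ptch1, Pthlh, Gli1 and Gli2 were lower. Over the 75 Col10a1-gate cells against 204 growth-plate cells with fewer than 5 Col10a1 UMIs, the log2 ratio of Ihh was 5.06 (exact conditional 95% interval 4.67 to 5.47), a 33.3-fold difference. Hhip differed 10.7-fold in the other direction, with a log2 ratio of -3.41 (-4.07 to -2.83). Ptch1 had -1.62 (-1.97 to -1.27), Pthlh -2.67 (-4.59 to -1.24) and Gli2 -2.27 (-3.95 to -0.97). Gli1 had -4.80 (-10.13 to -2.28), which rests on 1 UMI against 67. Gli3 at -0.70 (-1.27 to -0.16) moved by less than 2-fold, and the intervals of Smo (-0.73 to 0.04) and Sufu (-1.60 to 0.81) included 0.

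Counted at a difference of at least 2-fold, 1 of the 9 members was higher in the Col10a1 gate and 5 were lower. Over the 10546 genes measured in this comparison, 5.99% were higher and 14.2% lower. The members' median log2 ratio was -1.62 and that of all genes was -0.16. Pth1r, with a log2 ratio of 2.07 (2.00 to 2.15), stood with Ihh.

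The Col10a1 gate combined unlike cells, so its parts were set against each other. Between the 39 growth-plate and the 35 articular-type cells Ihh differed 30.8-fold (log2 ratio 4.95, 4.06 to 6.01) and Pth1r 16.9-fold. Hhip had a log2 ratio of -3.57 (-6.01 to -1.72), from 3 against 14 UMIs, and Smo -1.65 (-2.34 to -0.96). Ptch1 at 0.19 (-0.56 to 1.01) and Gli3 at 0.46 (-0.71 to 1.81) had intervals that included 0. Only 4 members reached the 20 UMIs needed to be counted, of which 1 was higher and 1 lower, where 15.6% and 13.9% of 6629 genes were. Among cells that met the Col10a1 rule, Ihh was thus counted in 36 of 39 of the growth plate and in 1 of 35 of articular type.

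Grouping the cells of the growth-plate and Col10a1 gates by their Col10a1 UMIs showed Ihh high in the last bin only, with no steady rise before it. Ihh was at 9.37 CPM in the 196 cells with 0 Col10a1 UMIs, 84.6 in 8 cells with 1 to 4, 8.82 in 20 cells with 5 to 49 and 532 in 55 cells with 50 or more. The 84.6 came from 1 cell of 8, a bin too thin to read. Bins on raw UMIs move with depth, and median depth was 18024, 21807, 12337 and 25354 UMIs. Hhip went from 144 through 65.8 and 52.9 to 4.05, and Pthlh from 13.9 through 14.1 and 11.8 to 0, which allows up to 2.02 in the last bin. Ptch1 was at 134, 108, 17.6 and 49.2, and Pth1r at 479, 1072, 750 and 2455. Most cells of the third bin were of articular type: outside that gate it held 3 cells and the other bins 184, 8 and 36. Median depth outside that gate was 17724, 21807, 37616 and 31656 UMIs in bin order. In these growth-plate cells Ihh was at 10.1, 84.6, 25.2 (5.21 to 73.8) and 667. Pth1r was at 493, 1072, 2129 (1875 to 2408) and 3043, but 1 of the 8 cells in the second bin held 68.0% of its Pth1r UMIs, and without that cell the bin stood at 471, under the first. Ptch1 had 138, 108, 8.42 (0.213 to 46.9) and 48.8. Hhip had 152, 65.8, 0, which allows up to 25.2, and 2.57. Pthlh had 14.3, 14.1, 0 with the same limit, and 0 again. In the second bin 1 cell held all Pthlh UMIs and 1 cell held 50% of the Hhip UMIs.

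**Figure D3:**
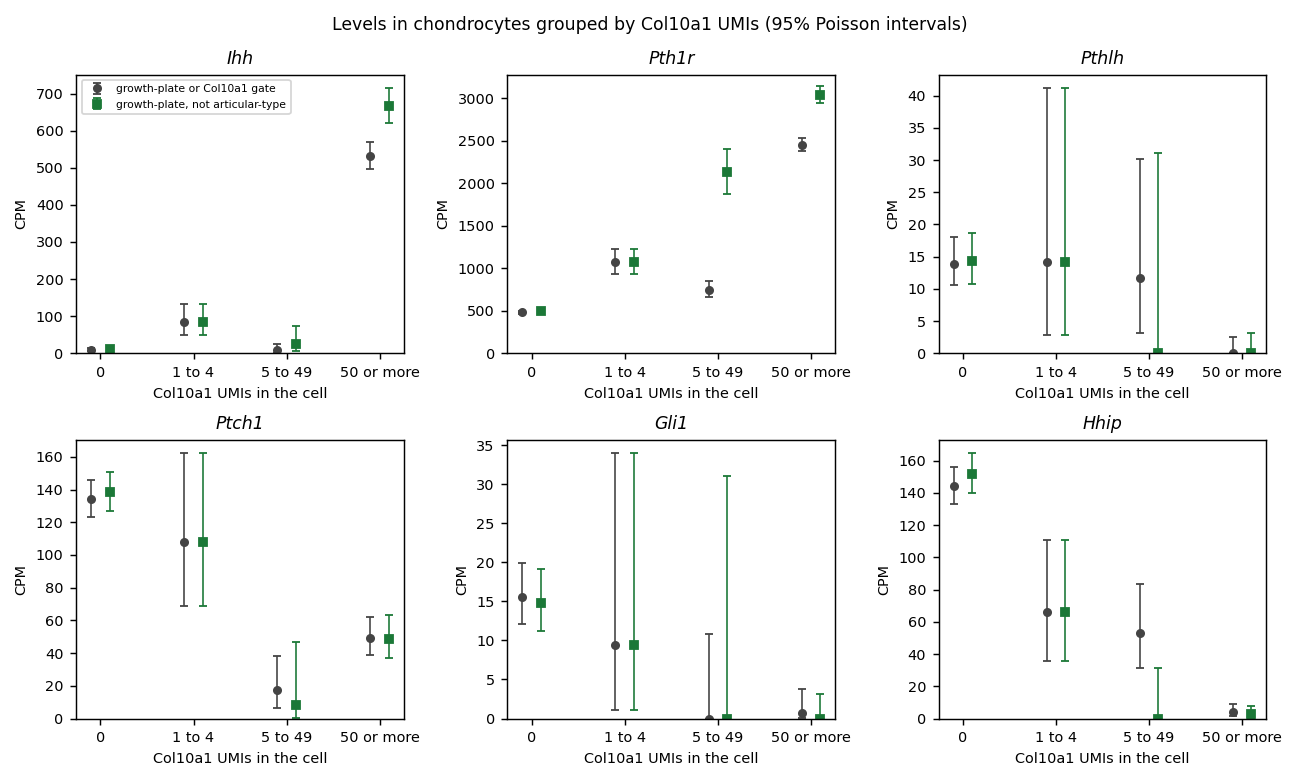
Levels in CPM with 95% Poisson intervals are plotted against Col10a1 UMIs in the cell, for cells of the growth-plate or Col10a1 gate (grey circles) and for growth-plate cells outside the articular-type gate (green squares). Ihh rises to 532 or 667 only at 50 or more Col10a1 UMIs, where Hhip is at 4.05 or 2.57; the middle bins of the green series hold 8 and 3 cells.

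Articular-type and growth-plate cartilage were then compared outside the Col10a1 gate, in 162 and 192 cells that share none. Hhip and Ptch1 were lower in articular-type cells. Ihh had a log2 ratio of -4.00 (-7.08 to -2.08), from 2 against 57 UMIs, but this rested mostly on cells shared with other gates. Without shared cells Ihh stood at 1.26 CPM (0.0320 to 7.04) in articular-type cells, from 1 UMI. Growth-plate cells then had 2.58 (1.04 to 5.32) from 7 UMIs, and these intervals overlapped. Hhip had -1.75 (-2.07 to -1.44), at 43.9 against 147 CPM, and Ptch1 -1.24 (-1.52 to -0.96), at 57.9 against 137. Smo was higher, 0.62 (0.33 to 0.91), but by less than 2-fold, and the 64 and 142 cells without shared barcodes had 63.2 and 62.0 CPM. The intervals of Gli1 (-1.14 to 0.29), Gli2 (-1.22 to 0.27), Gli3 (-0.93 to 0.02) and Sufu (-0.98 to 1.01) included 0.

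At 2-fold, 0 members were higher and 3 lower in articular-type cells, where 12.1% and 8.68% of 10854 genes were. Ihh was 1 of the 3, and its levels overlapped without shared cells. The members' median was -0.45 and that of all genes 0.08. Pthlh had a log2 ratio of 0.37 (-0.24 to 0.96), and its direction rested on the 1 cell with 29 UMIs: without the top cell of each group it was -0.96. Pth1r had -2.25 (-2.45 to -2.06).

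Cartilage as a whole was compared with stroma. The cartilage side was 314 cells of cartilage gates outside the Bglap, Cxcl12 and Dcn and Col3a1 gates. The stromal side was 112 cells of these 3 gates outside cartilage gates. The Ptprc and Cdh5 gates were not excluded, and 53 and 13 of these cells held a Ptprc UMI. Ihh, Hhip and Ptch1 were higher in cartilage and Sufu was lower. The log2 ratio of Ihh was 5.77 (4.22 to 8.06), from 724 against 3 UMIs. Hhip had 2.48 (1.93 to 3.1), at 111 against 19.9 CPM, and Ptch1 2.09 (1.59 to 2.63), at 107 against 25.1. Sufu had -1.31 (-2.10 to -0.49), at 6.52 against 16.2, but only 22 UMIs were counted in stroma and the 23 cells of the Cxcl12 gate held 11. Outside cartilage gates the Bglap-gate cells had Sufu at 12.8 (5.13 to 26.3) and the Dcn and Col3a1 cells at 7.94 (2.91 to 17.3), and both intervals included the cartilage level. Pthlh with 1.14 (0.02 to 2.51) and Gli2 with 1.16 (0.04 to 2.53) had lower bounds close to 0, and the interval of Gli1 (-0.05 to 2.45) included it. Gli3 had 0.70 (0.07 to 1.40) and Smo 0.19 (-0.19 to 0.59).

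By the 2-fold count, 6 members were higher in cartilage and 1 lower, where 12.1% and 16.5% of 11375 genes were. The members' median log2 ratio was 1.14, against -0.11 for all genes. Pthlh, Gli1 and Gli2 each had 7 UMIs in stroma, so 3 of the 6 rest on few molecules. Counting the cells that met gates of both tissues as stromal turned Pthlh to -0.10 and lowered Ihh to 1.72 and Ptch1 to 1.22.

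**Figure D4:**
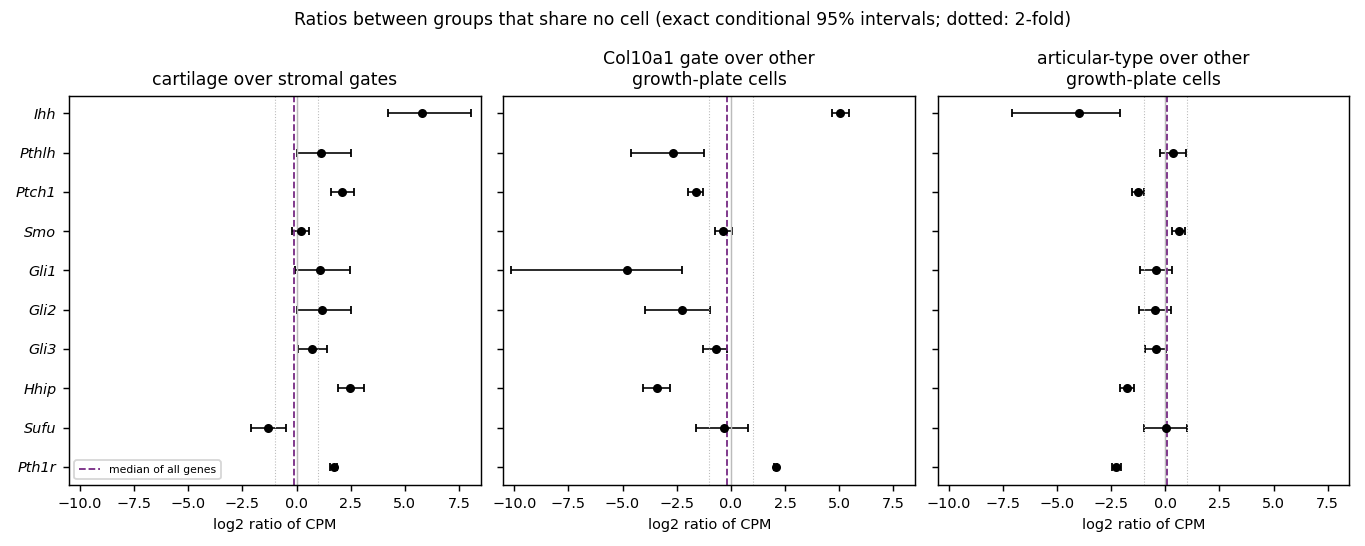
Log2 ratios of CPM are plotted for the 9 members and Pth1r in 3 comparisons of cells that share none, with exact conditional 95% intervals as bars, dotted lines at 2-fold and a dashed line at the median of all genes. Hhip and Ptch1 lie to the right in cartilage over stroma (2.48 and 2.09) and to the left in the Col10a1 gate (-3.41 and -1.62), where Ihh is at 5.06.

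Gli1 and Hhip were counted in larger shares of the growth-plate cells that held Ptch1. Of the 170 Ptch1-positive cells 25.9% held Gli1, against 4.11% of the 73 without Ptch1. Hhip was in 68.2% and 35.6% of them. Ptch1-positive cells were deeper, with a median of 21600 against 16958 UMIs. With Gli1 and Hhip thinned to 3000 UMIs but Ptch1 status kept at full depth, the expected shares were 5.09% and 0.419% for Gli1. For Hhip they were 30.6% and 15.9%. Gli2 went the other way, in 16.5% of Ptch1-positive and 23.3% of Ptch1-negative cells. Of the 170 and 73 cells, 22 and 17 also met the Col10a1 gate, and 14 and 11 the Bglap gate. Both gates were low in Gli1 and Hhip, and the part of this mix in the shares was not tested. These shares are a description of cells from 1 library.

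Most of the 24 Pthlh-positive growth-plate cells held Hhip and Ptch1. All 24 had fewer than 5 Col10a1 UMIs, so they were set beside the 180 other growth-plate cells below that limit. Hhip was in 87.5% of them and in 65.6% of the others, or 44.9% and 29.1% at 3000 UMIs. Ptch1 was in 87.5% and 70.6%, or 36.4% and 28.5%. Median depth was 18537 and 17724 UMIs, and Pthlh status was kept at full depth in the thinned shares. The Hhip level was 260 CPM (215 to 312) against 126 (116 to 138), whereas Pth1r was lower in the Pthlh-positive cells, at 135 (103 to 173) against 551 (528 to 575).

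Reporter transcripts were counted beside the ligand genes. Cells with more than 14 UMIs of WPRE, the element that tags the tdTomato transcript near its end and whose limit the study set, were counted as reporter-positive. In the growth-plate gate these were 20 of 48 Ihh-positive cells (41.7%, exact binomial 27.6 to 56.8) and 7 of 195 without Ihh (3.59%, 1.46 to 7.26). Within the Col10a1 gate they were 20 of 37 cells with Ihh (54.1%) and 25 of 38 without it (65.8%). The limit is a raw count and moves with depth. Median depth with and without Ihh was 32456 and 17592 UMIs in the growth-plate gate. In the Col10a1 gate it was 33765 and 13861. None of the 24 Pthlh-positive growth-plate cells was reporter-positive, which allows up to 12.5%, and over all cartilage gates 3 of 37 were (8.11%, 1.70 to 21.9). Those 3 were the Pthlh-positive cells of the Col10a1 gate, all in its articular-type part, among 15 such cells of the articular-type gate. Among growth-plate cells with fewer than 5 Col10a1 UMIs, 0 of the 12 with Ihh were, which allows up to 25%.

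The reporter-positive cells of the Col10a1 gate differed in Ihh between its parts. In its growth-plate cells 21 of 39 (53.8%) passed, and 20 of these 21 held Ihh. In its articular-type cells 24 of 35 (68.6%) passed, and none of the 24 held Ihh. The Cxcl12 gate had 10 of 23 (43.5%) and the Bglap gate 17 of 54 (31.5%), 3 of the 17 with Ihh. In the Cdh5 gate 0 of 89 passed, which allows up to 3.37%, and in the Ptprc gate 14 of 3286 (0.426%).

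The 69 further pathway genes were counted in the same comparisons. Between cartilage and stroma 57 were measured, of which 12 were higher and 8 lower, where 12.1% and 16.5% of all genes were, and their median log2 ratio was 0.01 against -0.11. The other hedgehog ligand genes were all but absent: no Shh UMI was seen in any gate, and Dhh had at most 3 UMIs in a gate. Scube1 and Scube2, which help release the ligand, had ratios of 3.01 (35.6 against 4.42 CPM) and 5.00 (23.6 against 0.737, from 1 UMI in stroma). Ext1, which builds the heparan sulfate chains that bind the ligand, was the most abundant of this role in stroma and had -0.54 (-0.94 to -0.13), at 35.4 against 51.6. In the Col10a1 gate Scube2 went the other way, with -3.88 (-5.77 to -2.49) over the other growth-plate cells. Among 6 measured genes of ligand release, 3 were higher and 0 lower, beside the same 12.1% and 16.5% of all genes.

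Gas1, Cdon and Boc, whose products present the ligand to Patched1, were all higher in articular-type than in growth-plate cells. Ptch1 went the other way and was lower in articular-type cells. Gas1 stood at 887 against 13.6 CPM (log2 ratio 6.03, 5.65 to 6.45), Cdon at 179 against 22.9 (2.96) and Boc at 57.9 against 21.9 (1.40), which were 3 of 3 measured receptor genes where 12.1% of all genes were higher. In the Col10a1 gate Gas1 had 4.43, Cdon 1.55 and Boc -0.47 (-1.13 to 0.15) over the other growth-plate cells. The Gas1 and Cdon of that gate lay in its articular-type cells. Gas1 had 1009 CPM there and no UMI in the 39 growth-plate cells, which allows up to 2.33, and Cdon had 215 (176 to 259) there and 10.1 (5.38 to 17.3) in the growth-plate cells. In stroma Boc was higher than in cartilage, with a cartilage-to-stroma ratio of -1.18, while Gas1 (-0.43) and Cdon (-0.32) differed by less than 2-fold.

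Of the hedgehog targets measured, 3 of 6 were higher and 1 lower in cartilage than in stroma (12.1% and 16.5% of all genes), 2 higher and 1 lower in the Col10a1 gate (5.99% and 14.2%), and 3 higher and 2 lower in articular-type cells (12.1% and 8.68%). Ccnd1, which encodes cyclin D1, had 137 against 17.7 CPM in cartilage and stroma (2.96), and its ratio was -3.57 in the Col10a1 gate and -2.94 in articular-type cells, both against growth-plate cells. The targets higher in the Col10a1 gate, named after their values were seen, were Bcl2 (1.40), at 78.9 CPM in the articular-type and 11.7 in the growth-plate cells of that gate, and Foxc2 (1.31), at 19.7 and 16.3. Ccnd2 had -1.14, -0.43 and 1.64 in these comparisons, and the transcription factor gene Foxc1 lay within 2-fold in all 3. Among effectors of PTHrP, Fos, the gene of an early-response transcription factor, was the most abundant at 2164 CPM in cartilage and lay within 2-fold in all 3 (0.36, 0.05 and -0.52). Cdkn1c, the gene of the cell-cycle inhibitor p57, had 2.98, 2.28 and -2.68, and Mef2c, which promotes hypertrophy, -0.67, 1.79 and -0.28. Within the Col10a1 gate Cdkn1c stood at 2673 CPM in growth-plate and 191 in articular-type cells, and Mef2c at 689 and 76.9. Of 11 cilium genes measured between cartilage and stroma, 3 were higher and 1 lower (12.1% and 16.5% of all genes), with a median of 0.18. Arl13b had 1.03, Tulp3 1.09 and Dync2h1 0.57 (-0.14 to 1.35), and the 1 lower gene, named after its value was seen, was Evc (-1.56). In the Col10a1 gate 2 of 10 were higher and 3 lower (5.99% and 14.2%), Tulp3 among the latter at -1.59. Csnk1a1, Gsk3b and Spop, which act on Gli proteins, lay within 2-fold between cartilage and stroma. Gsk3b had 1.60 in the Col10a1 gate, with 275 CPM in its growth-plate and 61.1 in its articular-type cells. Of the PTHrP signal genes Gnas (0.18) and Prkar1a (-0.46) lay within 2-fold in cartilage against stroma.

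Cycling growth-plate cells were also compared with the rest, a comparison chosen after the values were seen, and Gli1 and Ptch1 were higher in them while Hhip was lower. Among growth-plate cells with fewer than 5 Col10a1 UMIs, 42 held at least 2 of the proliferation genes Top2a, Mki67 and Birc5 and 162 did not. Gli1 stood at 26.1 against 11.1 CPM (log2 ratio 1.23, exact conditional 95% interval 0.50 to 1.97), and Ptch1 was at 165 against 120 (0.46, 0.20 to 0.71). Hhip went the other way, at 107 against 153 (-0.52, -0.81 to -0.24). Pth1r was at 291 against 593 (-1.03). Pthlh had -2.12 (-3.80 to -0.81) from 5 against 56 UMIs, Gli2 -1.08 (-2.29 to -0.04), Sufu -2.28 (-5.40 to -0.28) from 2 against 25, and Ihh -2.81 (-5.13 to -1.18) from 3 against 54. Only 7 Ihh UMIs lay in the 142 growth-plate cells of no other gate, so the Ihh ratio rests mostly on shared cells. By the 2-fold count 1 member was higher and 4 lower, where 10.8% and 7.5% of 9707 genes were. Cycling cells were deeper, at a median of 28785 against 16845 UMIs, and the part of depth in these ratios was not tested.

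Genes whose levels over 8 classes without shared cells resembled those of the members were listed by Pearson's r among 12369 genes. These correlations are over 8 points of 1 library and are a description only. Ihh was most like Pla2g10 (0.984), Krtap17-1 (0.984) and Col10a1 (0.977), but Col10a1 defines 1 of the 8 classes, so its own profile over them is set by the gate rule. Pthlh was most like Rgma (0.978) and Tenm3 (0.958), which were also among the 5 nearest to Hhip, at 0.956 and 0.939 after Angptl2 (0.965). Ptch1 was most like Slc35e3 (0.959) and the sulfate transporter gene Slc26a2 (0.958), and Gli1 was most like Pthlh (0.944). Smo was nearest to Ift43 (0.974) and Foxc1 (0.967), Gli2 to Cldnd1 (0.981), Gli3 to Sobp (0.993) and Hoxc10 (0.989), and Sufu to Acad8 (0.992).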

How the data were processed

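The series holds 8 labelled samples of 1 group, 1 pool of cells from 3 mice. The authors aligned the reads to mm10 with added GFP, tdTomato and WPRE sequences using Cell Ranger 3.1.0, and the deposited matrix holds UMI counts per gene and barcode, not normalized (12564 barcodes, 31053 genes, 91463572 UMIs). Barcodes of at least 1600 genes were kept, the study's floor, at 3224 to 103543 UMIs each (median 10452). Gates, members and gene lists were chosen with earlier results of these data known. Levels are UMIs summed over a gate per 1000000 (CPM), with exact Poisson intervals. Shares have Clopper-Pearson intervals. Ratios have exact conditional intervals and are called at 2-fold, over genes of at least 20 UMIs in both groups together. Where no UMI was seen, the limit is 3 counts. All cover counting error only. No test was run, since cells are not replicates. Thinned shares are exact expectations at 3000 UMIs. Scrublet (scanpy 1.11.5, expected rate 6%) marked 445 of the 12564 barcodes. Of these, 332 were among the 4472 barcodes of at least 1600 genes, and none was removed for this. Named genes were the members, up to 3 of each pathway role with the highest level in cartilage or stroma, and the 5 most alike by r, and the text says where a name falls outside this. Numpy 2.4.6, scipy 1.17.1 and pandas 2.3.3 were used. Gene positions are GENCODE M21 and promoters RefSeq, for 8 of 9 members. Ratios were checked on simulated Poisson counts with no spread between cells, so the check does not cover levels that rest on 1 cell.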

Additional observations from a re-analysis of the deposited data

Results flagged for a closer look

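Barcodes under the 1600-gene floor entered no gate and no comparison, yet 8 of the 9 members had more than 3 UMIs among these 8092 barcodes, above the limit that a count of 0 allows. Sufu had 202 UMIs there, at 5.97 CPM against 5.88 in the kept barcodes, so 37.3% of its UMIs lay below the floor. Ptch1 had 55, at 1.63 against 18.3 CPM. Smo had 26, Hhip 16, Gli2 6, Gli3 5, and Ihh and Gli1 had 4 each. Whether these barcodes are small cells, damaged cells or droplets with free RNA was not tested.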

How the results depend on the processing

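Of 117 ratios recomputed under other settings, 107 stayed within their own interval and 10 did not. Of these 10, 5 changed sign, all for Pthlh, and 1 of the 5 was past 2-fold as reported. Another 1 changed sign within its reported interval, which included 0. Counting cells that met gates of both tissues as stromal, an alternative chosen after seeing the data, lowered the cartilage-to-stroma log2 ratio of Ihh from 5.77 to 1.72 and of Ptch1 from 2.09 to 1.22, and turned Pthlh from 1.14 to -0.10, since these cells then join the stromal side. A floor of 2500 genes raised Hhip from 2.48 to 3.26, and the cause was not tested. The Ihh ratio between the Col10a1 gate and other growth-plate cells went from 5.06 to 7.72 with cells in gates of 1 tissue only and to 5.63 when cells had equal weight. The articular-to-growth-plate ratio of Pthlh, 0.37 as reported, was -1.47 without cells with a Ptprc UMI, -1.66 with cells in gates of 1 tissue only, -0.83 when cells had equal weight and -0.96 without the top cell of each group. Its interval included 0 as reported. The cell with 29 Pthlh UMIs holds a Ptprc UMI and meets gates of both tissues, so 3 of these settings leave it out. Thinning to 3000 UMIs lowered 64 of 72 shares, 55 of them beyond their interval. With 1 pool no animal could be left out. No paired analysis was possible because the series has 1 group. In the 314 cartilage cells low counts limit Gli1, Gli2, Pthlh and Sufu most, at 39 to 69 UMIs each. A count of 0 in the 23 cells of the Cxcl12 gate allows a level of up to 14.1 CPM.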
